A study of Homo sapiens with 9 samples.

Results

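The integrin and focal adhesion genes examined here are 48 of 20098 protein-coding genes: 24 integrin subunits and 24 proteins of the adhesion complex that binds to their tails. They were taken by name, and a peak counted for a gene when its centre fell between the gene's ends or at most 10 kb outside them on the GRCh37 annotation. The peaks come from ATAC-seq, in which the Tn5 transposase cuts open DNA, on K562 cells, a human leukaemia line that grows in suspension. The 9 libraries fall into 3 genotypes of 3 replicates. The wild type libraries came from parental cells labelled as carrying no STAG2 mutation. The heterozygous libraries carry STAG2 R614* with the genotype label +/-, and the homozygous libraries carry it with the label -/- and are titled as null. The STAG2 protein is part of cohesin, a ring-shaped complex that holds chromatin loops, and R614* is a stop codon. Both mutants were edited with CRISPR-Cas9. The design text gives 1 line for each, but it names the homozygous line differently from the titles, so that the libraries are of that line rests on the genotype label. The labels give the homozygous cells alone as adherent, detached with trypsin, so STAG2 genotype, cell line and adherent growth cannot be told apart in these data. Nothing in the labels says that the replicates were separate cultures, so p-values measure only the spread between these libraries, which may be technical.

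Integrins are receptors made of an alpha and a beta subunit that bind the extracellular matrix or other cells. Talins and kindlins bind the beta tail and switch the receptor to its active form. A plaque of adaptors, kinases and actin-binding proteins then assembles on the tail as a focal adhesion, which ties the receptor to the cytoskeleton and carries signals of the FAK and Src type. Blood cells in suspension rely mostly on the leukocyte beta-2 and the beta-1 integrins and form few stable focal adhesions.

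Each deposited list held 181579 to 319986 peak intervals, so each library was limited to its top 50000 peaks by −log10 p, called the strongest below. Strength is given as a percentile within those 50000, where 100 is the strongest. Merging them over the 9 libraries gave 105878 regions, of which 334 lay in windows of the 48 genes. Some lists were not independent: wild type 3 and heterozygous 1 shared 46.0% of the intervals of the shorter list to the base, and wild type 1 and 2 shared 23.2%, against at most 1.17% for any other pair. Of 12 K562 marker genes, 8 to 10 per library had a strong peak at a start. Over the 9 libraries, 7 had one in all and 2, GATA1 and KLF1, had one in none. The count per library was 2 to 3 of 8 fibroblast, 3 to 4 of 6 epithelial, 0 to 1 of 4 endothelial and 0 to 1 of 5 lymphoid markers.

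In the homozygous line, 15 regions of these genes were present in all 3 libraries and in 0 of the 3 wild type libraries, and 10 regions were present in the 3 wild type libraries only. A region of either kind is called separated. Presence, here and below, means a peak among the strongest, so an absent region can still hold a weaker peak. All 15 homozygous-only regions had a peak in at least 1 wild type full list, and the printed ones in 2 or 3. Of the 10 wild type-only regions, only that of LIMS1 had none in the homozygous full lists. The DNA of 11 of the separated sites is shown because these sites carry the difference in presence among the strongest peaks between the lines. Each stretch is 200 bases around the centre of the peaks, on the plus strand of GRCh37. Capitals mark matches, on either strand, to 5 short motifs. The letters of AP-1 were TGANTCA, those of the TEAD factors were GGAATG, those of the haematopoietic zinc finger factors of the GATA family were NGATAA, those of RUNX were TGTGGT, and a core motif of CTCF was also searched. Sites overlapping transcribed untranslated sequence were left out in both directions, a filter added after the rule of choice was fixed. It removed the top site of each direction, that of ITGA3 and that of BCAR1. Among the rest, the sites of ITGA9, TNS1, NEDD9 and PARVG were the highest ranked homozygous-only ones. Those of FERMT1, TNS3 and NEDD9 were the highest ranked wild type-only ones. The sites of ITGA2, ITGA5 and ITGB1 were added after their values were seen. Present in homozygous libraries only:
ITGA9 intron site, chr3:37727834-37728033: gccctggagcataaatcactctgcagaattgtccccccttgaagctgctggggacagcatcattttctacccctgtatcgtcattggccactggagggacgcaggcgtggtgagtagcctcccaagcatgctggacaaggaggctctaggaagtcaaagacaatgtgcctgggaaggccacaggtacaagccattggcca
TNS1 intron site, chr2:218767447-218767646: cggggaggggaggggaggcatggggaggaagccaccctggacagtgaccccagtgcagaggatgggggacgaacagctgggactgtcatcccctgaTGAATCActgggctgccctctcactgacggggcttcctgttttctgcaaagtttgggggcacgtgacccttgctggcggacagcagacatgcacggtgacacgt
NEDD9 intron site, chr6:11224934-11225133: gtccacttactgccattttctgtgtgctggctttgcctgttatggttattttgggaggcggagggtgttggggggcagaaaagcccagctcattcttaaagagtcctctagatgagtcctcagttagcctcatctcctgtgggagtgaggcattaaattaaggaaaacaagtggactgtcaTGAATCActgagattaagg
PARVG intron site, chr22:44588423-44588622: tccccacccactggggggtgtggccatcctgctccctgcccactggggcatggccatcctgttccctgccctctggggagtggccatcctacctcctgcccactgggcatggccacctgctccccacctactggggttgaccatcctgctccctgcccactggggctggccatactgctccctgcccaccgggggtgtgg
ITGA2 intron site, chr5:52365601-52365800: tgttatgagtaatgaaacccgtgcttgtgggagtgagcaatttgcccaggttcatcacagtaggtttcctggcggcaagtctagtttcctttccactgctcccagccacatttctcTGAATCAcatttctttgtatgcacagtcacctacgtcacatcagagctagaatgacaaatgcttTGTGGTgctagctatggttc
ITGA2 intron site, chr5:52304619-52304818: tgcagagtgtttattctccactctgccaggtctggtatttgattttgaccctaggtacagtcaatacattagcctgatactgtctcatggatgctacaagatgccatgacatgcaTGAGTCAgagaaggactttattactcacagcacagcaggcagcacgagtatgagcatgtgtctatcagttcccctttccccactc
Present in wild type libraries only:
FERMT1 downstream site, chr20:6054847-6055046: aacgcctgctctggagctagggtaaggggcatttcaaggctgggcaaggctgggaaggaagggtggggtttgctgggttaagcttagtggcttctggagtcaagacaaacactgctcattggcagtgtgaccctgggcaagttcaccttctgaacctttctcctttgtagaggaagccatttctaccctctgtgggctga
TNS3 intron site, chr7:47394666-47394865: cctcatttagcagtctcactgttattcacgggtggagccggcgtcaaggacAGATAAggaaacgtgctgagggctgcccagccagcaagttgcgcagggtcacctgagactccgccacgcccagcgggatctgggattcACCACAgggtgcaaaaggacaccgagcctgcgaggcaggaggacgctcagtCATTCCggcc
NEDD9 intron site, chr6:11310156-11310355: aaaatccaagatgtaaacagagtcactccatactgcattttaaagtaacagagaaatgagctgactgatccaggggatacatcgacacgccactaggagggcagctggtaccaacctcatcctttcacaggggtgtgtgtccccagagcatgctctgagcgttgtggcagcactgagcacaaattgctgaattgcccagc
ITGA5 intron site, chr12:54793194-54793393: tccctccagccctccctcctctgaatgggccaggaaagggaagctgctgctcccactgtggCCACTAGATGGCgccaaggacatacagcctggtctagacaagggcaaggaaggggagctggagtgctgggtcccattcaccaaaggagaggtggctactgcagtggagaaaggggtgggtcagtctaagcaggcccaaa
ITGB1 upstream site, chr10:33297766-33297965: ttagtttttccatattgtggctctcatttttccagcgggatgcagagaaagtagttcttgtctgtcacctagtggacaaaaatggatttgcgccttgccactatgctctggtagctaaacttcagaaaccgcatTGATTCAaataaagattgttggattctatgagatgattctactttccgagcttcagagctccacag

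The AP-1 letters stand in the printed TNS1, NEDD9 and both ITGA2 homozygous-only sites and in the ITGB1 wild type-only site. The CTCF letters stand in the ITGA5 wild type-only site. Over 500 bases around each centre, the AP-1 letters occurred in 9 of the 15 homozygous-only regions and in 1 of the 10 wild type-only regions. They occurred in 24.6% of the other 309 regions of these genes and in 22.9% of all regions. Genome-wide they occurred in 45.6% of the 2569 homozygous-only and 17.7% of the 3301 wild type-only regions, so homozygous-only regions in general held them more often than the average region. The CTCF letters occurred in 1 of 15 and 2 of 10 regions of these genes, and in 6.64% of all regions, 2.26% of all homozygous-only and 10.1% of all wild type-only regions. The TEAD, GATA and RUNX letters occurred in 3, 7 and 6 of the 15, and in 2, 4 and 5 of the 10. Their shares over all regions were 23.7%, 51.6% and 32.3%. The motifs are short, 2 of them can match within the same bases, and a match describes letters, not bound protein.

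The 48 genes together held slightly more strong peaks in the homozygous line. The number was 153, 152 and 161 in the wild type libraries, 168, 155 and 155 in the heterozygous and 172, 169 and 176 in the homozygous. The homozygous libraries were all above the others, with a mean of 172.3 ± 3.51 (SD, n = 3) against 155.3 ± 4.93 in wild type. ITGA9 held much of this, with 7, 7 and 8 in wild type, 7, 7 and 8 in heterozygous and 17, 10 and 16 in homozygous libraries. Without ITGA9, the wild type libraries stayed below the homozygous ones, but the highest heterozygous library was above them all. Peaks within 1 kb of a start of a protein-coding transcript numbered 32 to 39, 37 to 41 and 33 to 44, so these groups overlapped. The distal peaks, away from starts, numbered 118 to 122, 114 to 130 and 125 to 142. In the full lists these genes held 0.223 to 0.238% of wild type, 0.242 to 0.255% of heterozygous and 0.290 to 0.314% of homozygous peaks. The windows of all protein-coding genes held 51.3 to 53.4%, 53.5 to 56.3% and 55.8 to 57.6% of the full lists.

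**Figure D1:**
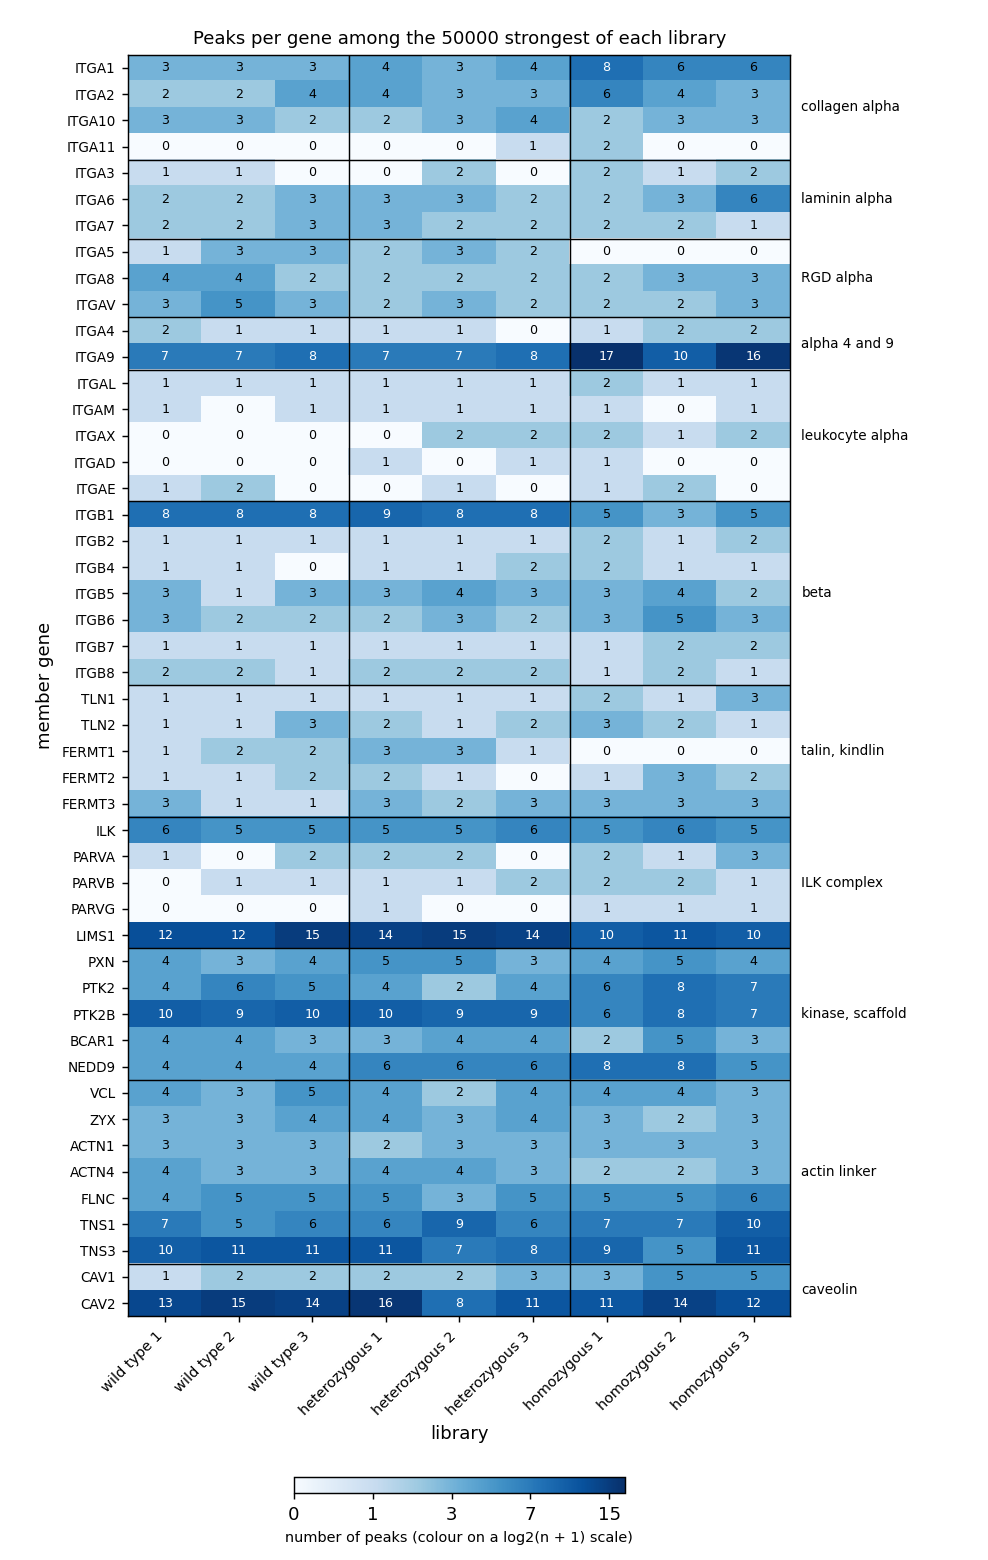
Number of peaks of each of the 48 genes (rows, by role) among the 50000 strongest peaks of each of the 9 libraries (columns). Each cell gives the number, and the colour follows log2(number + 1). ITGA9 is darkest in the homozygous columns, with 17, 10 and 16 peaks, and ITGA5 and FERMT1 are at 0 there.

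For most of these genes, the start either had a strong peak in every library or had one in none. The canonical start, the first base of the reference transcript, had a strong peak within 1 kb in all 9 libraries for 18 genes and in 0 libraries for 19. The other 11 genes had one in 1 to 8 libraries. The 19 without a strong peak were 14 integrin subunits (ITGA1, ITGA3, ITGA5, ITGA8, ITGA10, ITGA11, ITGAL, ITGAM, ITGAD, ITGAE, ITGB2, ITGB4, ITGB6 and ITGB7) and the adaptors PARVA, PARVG, FERMT1, TNS1 and TNS3. Such a start could still hold a weaker peak in the full lists, as that of ITGA1 did.

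By median percentile over the 9 libraries, the strongest start was that of LIMS1, which encodes the PINCH adaptor of integrin-linked kinase, at 91.1 (85.1 to 94.0). Next came vinculin (VCL), which links talin to actin, at 80.3 to 97.2, and NEDD9, a docking protein of FAK and Src signalling, at 82.5 to 96.0. ITGAV, the alpha subunit of the vitronectin receptors, lay at 77.6 to 95.3, and zyxin (ZYX) at 84.1 to 91.7. Regions at a start of these genes were present in all 9 libraries in 40% of cases, against 54.2% of all start regions. Their distal regions were in 13.3%, against 12% of all distal regions in gene windows. The 12% leaves out starts of every gene, whereas the 13.3% leaves out only starts of the gene itself.

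Only ITGAX, the alpha-X chain of a leukocyte integrin, had its canonical start in the 3 homozygous and 0 wild type libraries, at percentiles of 44.8, 22.03 and 38.1. That region, chr16:31365720-31366713, was absent from heterozygous 1 and present in heterozygous 2 and 3 at 12.6 and 8.2. No gene had the reverse pattern.

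Among the 18 genes with a start peak in all libraries, 5 had homozygous percentiles all above the wild type ones, and 0 had them all below. This count leaves out starts that lacked a strong peak in any library. With absence taken as lowest, PTK2B of these was lower in all homozygous than in all wild type libraries, and ITGAX and FERMT2 were higher. Over all 8618 genes of that kind, 15.3% were above and 8.6% below. The median start of those 8618 genes was itself higher in all 3 homozygous libraries, at 80.8, 81.8 and 76.7 against 75.9 to 76.4 in wild type. In heterozygous libraries it was 76.4, 77.5 and 77.3. The median of the 18 genes overlapped, at 72.2, 70.1 and 80.3 in wild type and 68.15, 86.5 and 79.5 in homozygous libraries. The comparison of start percentiles was added after the values had been seen.

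The 5 genes were ACTN4, ACTN1, VCL, NEDD9 and PTK2. Actinin-4 (ACTN4), which crosslinks actin filaments, showed the widest gap: 60.0, 66.5 and 38.7 in wild type, 41.7, 70.7 and 35.9 in heterozygous and 94.8, 97.2 and 91.6 in homozygous libraries. Its group means were 55.1 ± 14.6 in wild type and 94.5 ± 2.80 in homozygous libraries (SD, n = 3 each). Its paralogue actinin-1 (ACTN1) lay at 48.1, 47.5 and 69.0 in wild type, 52.3, 36.9 and 54.2 in heterozygous and 76.6, 84.6 and 90.5 in homozygous libraries. All homozygous values of both actinins were above all 6 others. ACTN4 lies on chromosome 19, whose share of the strongest peaks was 1.24 times as high in homozygous as in wild type libraries. For chromosome 14, which holds ACTN1, the ratio was 0.85. The part of these chromosome shares in the start percentiles was not tested.

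VCL lay at 80.3, 86.7 and 88.2 in wild type, 87.9, 86.6 and 83.7 in heterozygous and 91.9, 97.2 and 91.2 in homozygous libraries. NEDD9 lay at 87.8, 89.9 and 86.7, then 86.0, 82.5 and 87.1, then 92.7, 96.0 and 90.8. These 2 also had homozygous values above all 6 others, by narrow margins. PTK2, which encodes the focal adhesion kinase FAK, lay at 39.0, 34.1 and 40.9 in wild type and 63.4, 54.4 and 43.3 in homozygous libraries. Its heterozygous values of 45.8, 49.2 and 34.8 overlapped both. With 3 libraries against 3, an exact two-sided test of 1 gene cannot go below p = 0.1, so none was run on these percentiles.

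**Figure D2:**
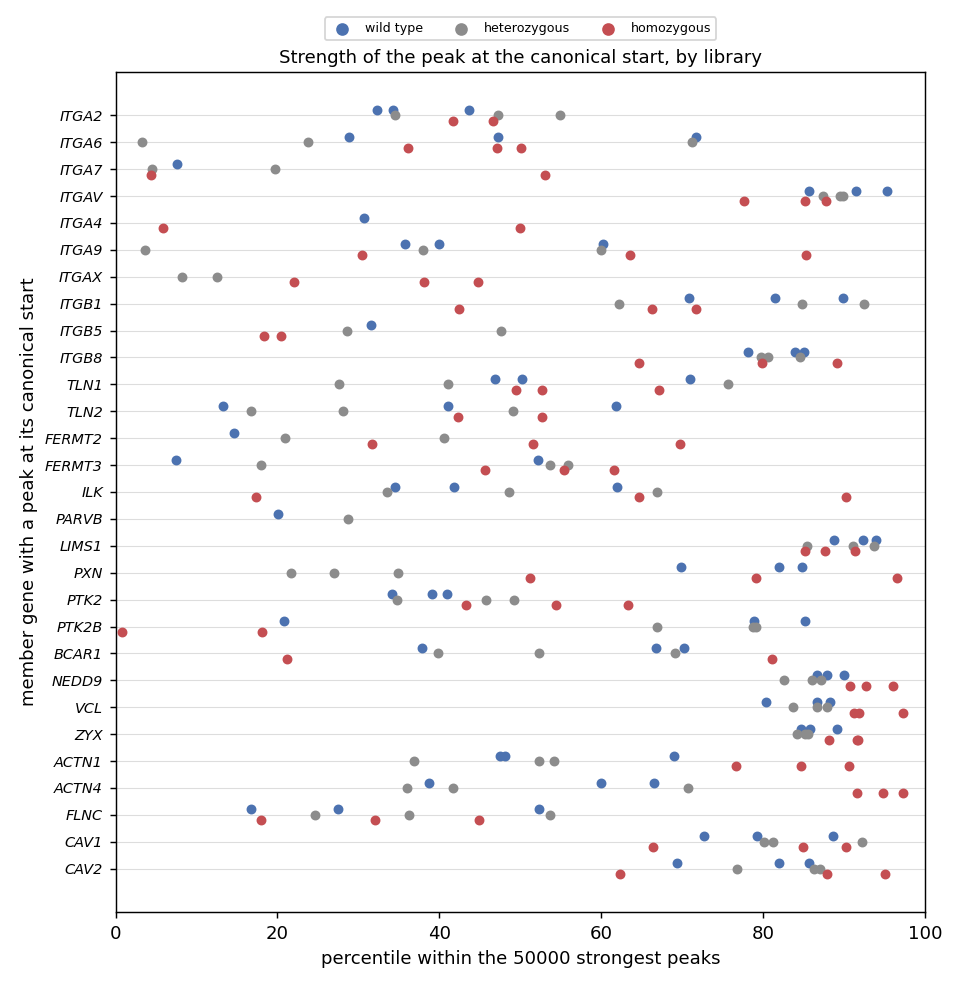
Percentile within the 50000 strongest peaks (x axis) of the peak at the canonical start of the 29 genes that had one in any library (y axis, by role). Each point is 1 library, coloured by genotype. The homozygous points of ACTN4 lie at 91.6 to 97.2, above all others of that gene, while those of PTK2B lie at 0.8 and 18.1 with 1 library absent.

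Most other starts varied without such an order. Paxillin (PXN), the scaffold that recruits FAK, was at 69.8, 81.9 and 84.7 in wild type and at 34.9, 27.0 and 21.7 in heterozygous libraries, all lower, but at 51.2, 96.5 and 79.1 in homozygous ones. It was the only one of the 18 whose heterozygous and wild type values did not overlap, where 4.91% of all such genes were lower and 5.86% higher. PTK2B, the FAK-related kinase PYK2, lay at 85.2, 20.7 and 78.9 in wild type, 78.8, 66.8 and 79.1 in heterozygous, and was absent, 18.1 and 0.8 in homozygous libraries. The homozygous values of PTK2B were below all others, but by a narrow margin from wild type 2, and the wild type values alone spanned most of that range. Talin-1 (TLN1) ranged from 27.6 to 75.7, integrin-linked kinase (ILK) from 17.4 to 90.2 and caveolin-1 (CAV1), a coat protein of caveolae, from 66.3 to 92.2, with overlapping genotypes. ITGB1, the beta-1 subunit shared by many matrix receptors, lay at 89.9, 70.8 and 81.5 in wild type, 92.5, 62.1 and 84.8 in heterozygous and 71.6, 66.2 and 42.4 in homozygous libraries, with 1 homozygous value above the lowest wild type one.

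The separated regions were somewhat more frequent here than elsewhere in the homozygous direction. Of the 303 regions seen in homozygous or wild type libraries, the 15 homozygous-only ones made up 4.95%, against 2.7% of all regions. The 10 wild type-only ones made up 3.30%, against 3.46%. Away from starts of their own gene, 12 of 250 were homozygous-only, against 2.89% of all distal regions in gene windows. Of the same 250, 8 were wild type-only, against 4.04%. The 2.89% and 4.04% also leave out starts of other genes, where the ITGA3 and ITGB4 homozygous-only sites lie, so the sets differ. At starts, 3 of 53 were homozygous-only, against 1.49%, and 2 were wild type-only, against 1.32%. On chromosomes 15 to 22, which held a larger share of the homozygous lists, 5 of 45 were homozygous-only, against 3.27%, and on the other chromosomes 10 of 258, against 2.58%. These counts are small, and no test was made over the genes.

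**Figure D3:**
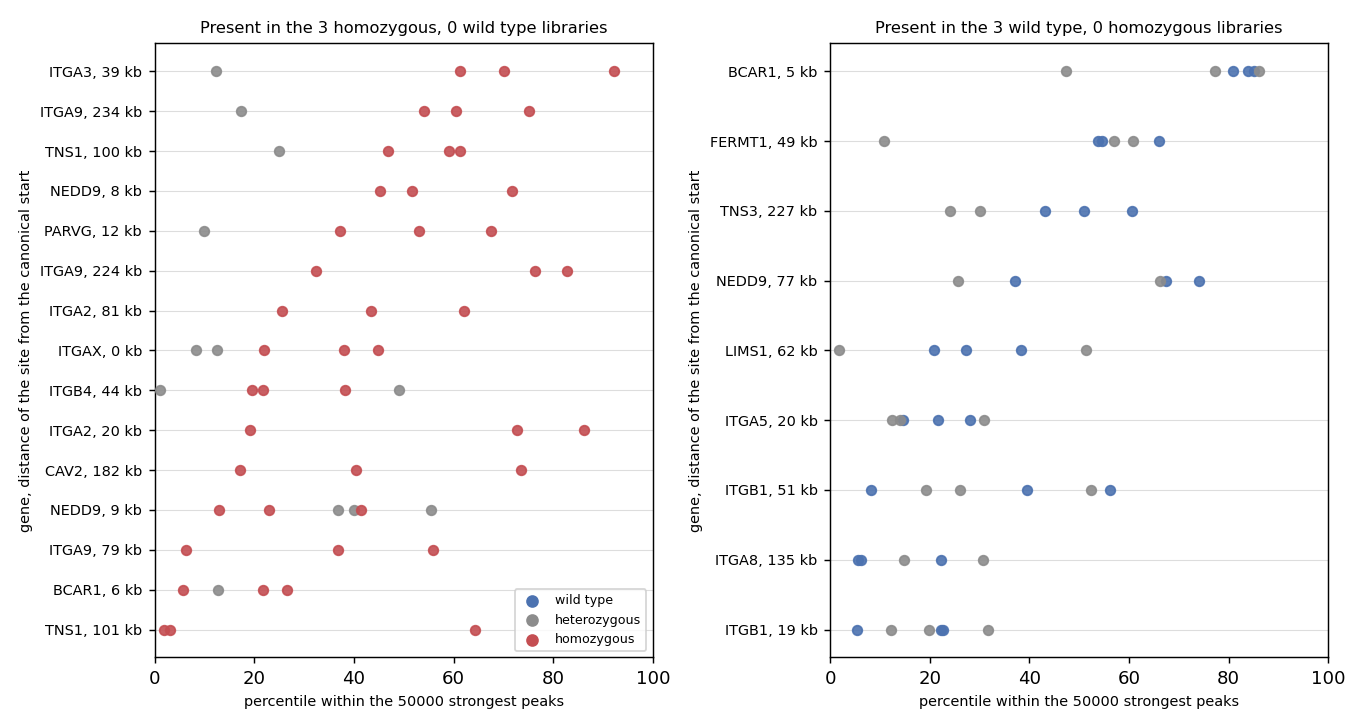
Percentile (x axis) of each of the 15 homozygous-only (left) and 9 of the 10 wild type-only (right) regions in every library that has it among its 50000 strongest peaks. Rows name the gene and the distance of the site from its canonical start, and colours give the genotype. Heterozygous points accompany all 9 wild type-only sites shown and 8 of the homozygous-only ones.

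Among integrin alpha subunits, ITGA9 held 3 homozygous-only regions, all intronic. ITGA9 encodes the alpha-9 chain, a receptor for tenascin and other ligands that also pairs with beta-1. The region at chr3:37727665-37728198, 234.3 kb into the gene, was at 60.4, 54.1 and 75.2 in homozygous libraries and at 17.3 in heterozygous 3 alone. The region at chr3:37717234-37718126 was at 82.7, 32.5 and 76.3 and in no other library. Over the whole gene the strong peaks numbered 7, 7 and 8 in wild type, 7, 7 and 8 in heterozygous and 17, 10 and 16 in homozygous libraries. The homozygous numbers were all higher, and their spread was also larger. In the limma fit over 15284 genes with a mean of at least 1 strong peak, the log2 difference of number + 1 was 0.85 ± 0.19 (SE), adjusted p = 0.0744. An added fit restricted to 4544 genes with a mean of at least 3 peaks, with robust moderation, gave the same difference with adjusted p = 0.0152. That fit called 4 of its 18 adhesion genes against wild type, where 9.71% of all its genes were called, and 5 of 18 against heterozygous, where 10.3% were. Not every ITGA9 site followed. The site 313.8 kb from the start was at 97.0 to 99.7 over the 9 libraries, and the start itself was at 35.7 to 60.2 in wild type and at 30.4, 85.3 and 63.6 in homozygous libraries.

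ITGA2 and ITGA1 lie side by side on chromosome 5 and encode the alpha-2 and alpha-1 chains of the collagen receptors. ITGA2 held 2 homozygous-only intronic regions. The one at chr5:52365403-52366038 was at 43.4, 62.1 and 25.5, and the one 19.6 kb from the start was at 72.8, 19.2 and 86.1, both with 0 of the 6 other libraries. Another intronic site, chr5:52315013-52315578, was present throughout but ranked at 81.0, 33.7 and 19.5 in wild type, 28.2, 0.886 and 4.71 in heterozygous and 91.2, 98.5 and 97.9 in homozygous libraries. All homozygous values lay above the 6 others. The start of ITGA2 did not follow, at 32.3 to 43.6 in wild type and at 41.6, 46.6 and absent in homozygous libraries. The number of strong ITGA2 peaks was 2, 2 and 4, then 4, 3 and 3, then 6, 4 and 3, so the groups overlapped (adjusted p = 0.389 by limma, homozygous minus wild type).

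ITGA1 rose in number without any separated region. Its strong peaks numbered 3, 3 and 3 in wild type, 4, 3 and 4 in heterozygous and 8, 6 and 6 in homozygous libraries. The log2 difference of homozygous minus wild type was 0.93 ± 0.13 (SE, limma, adjusted p = 0.0147), and against heterozygous it was 0.71 ± 0.13 (adjusted p = 0.0382). In these 2 comparisons 3.12% and 3.21% of the 15284 genes were called, against 2 and 4 of the 43 genes tested here. The 3 sites shared by all 9 libraries lay 12.5, 127.6 and 160.7 kb from the start. The extra homozygous sites were intronic and, with 1 exception, in a single library each, so the number rose while none of them was shared by the 3 homozygous libraries. The full lists gave 16, 33 and 27, then 27, 12 and 15, then 15, 23 and 30 peaks, which overlap. Without wild type 1 or 2 the adjusted p against wild type was 0.0615 or 0.0611. Without any 1 heterozygous library, or homozygous 2 or 3, that against heterozygous was 0.0537 to 0.0797.

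ITGA5, the alpha-5 chain of the fibronectin receptor, fell. It had 1, 3 and 3 strong peaks in wild type, 2, 3 and 2 in heterozygous and 0, 0 and 0 in homozygous libraries. The fitted difference was −1.67 ± 0.28 against wild type (SE, limma, adjusted p = 0.0315) and −1.72 ± 0.28 against heterozygous (adjusted p = 0.0279). Its size depends on the 1 added to each number. The wild type-only region at chr12:54792953-54793632, 19.8 kb from the canonical start at the start of a shorter transcript, was at 28.1, 14.6 and 21.7 in wild type and at 12.4, 13.9 and 30.8 in heterozygous libraries. All of these are low percentiles, and the 3 homozygous full lists still held a peak there. Over the whole gene the full lists held 8 peaks in each of the 6 wild type and heterozygous libraries and 8, 7 and 11 in homozygous ones. The difference was one of rank within the list. Without wild type 2, wild type 3 or any 1 homozygous library the adjusted p against wild type was 0.0716 to 0.107, and against heterozygous it was 0.0653 to 0.0893 without any 1 library of either group.

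ITGA3, an alpha chain of laminin receptors, had the highest ranked homozygous-only region, chr17:48172232-48173158, at 61.3, 92.2 and 70.0 and at 12.2 in heterozygous 2. It lies downstream of ITGA3 at the start of PDK2, a kinase gene, so its assignment to ITGA3 rests on distance alone. ITGB4, the beta-4 chain of hemidesmosomes, had one at the start of GALK1, at 38.2, 19.6 and 21.7. ITGA8 had a wild type-only intronic region at 6.3, 5.5 and 22.3, near the bottom of the 50000. ITGA4, the alpha-4 chain of leukocytes, held 2, 1 and 1 strong peaks in wild type and 1, 2 and 2 in homozygous libraries.

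Among beta subunits, ITGB1 fell against the heterozygous line. Its strong peaks numbered 8, 8 and 8 in wild type, 9, 8 and 8 in heterozygous and 5, 3 and 5 in homozygous libraries. The difference was −0.83 ± 0.16 against heterozygous (SE, limma, adjusted p = 0.0459) and −0.78 ± 0.16 against wild type (adjusted p = 0.0602), with adjusted p = 0.0118 and 0.0177 in the added fit. Without any 1 library other than homozygous 2, the adjusted p against heterozygous was 0.0514 to 0.120. The wild type-only region at chr10:33297302-33298116, upstream of the gene, was at 39.4, 56.1 and 8.3 in wild type and at 19.2, 26.1 and 52.3 in heterozygous libraries. A second one lay 19.5 kb from the start, at 22.2, 5.5 and 22.7. Both were absent from the 3 homozygous sets of strongest peaks.

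The strongest sites of ITGB1 stayed present but ranked lower. The site 13.3 kb from its start was at 95.7, 88.7 and 98.8 in wild type, 98.9, 86.2 and 90.5 in heterozygous and 30.3, 67.3 and 74.2 in homozygous libraries. The site 22.7 kb from its start was at 76.6, 83.2 and 85.7, then 86.2, 82.0 and 81.6, then 48.8, 22.2 and 73.1. Homozygous values were below all others at both sites. Across the 37 distal regions of the 48 genes present in all libraries, 6 had homozygous values all below wild type and 5 all above. The shares were 16.5% and 10.8% of 5976 distal regions in gene windows, a set that leaves out starts of every gene. The other lower ones belonged to TNS3, CAV2, FLNC and ITGA7, and the higher ones to ITGA2, ITGB7, NEDD9, ITGA10 and ITGAL. The regions of ITGA10, ITGAL and ITGA7 lie at starts of other genes.

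**Figure D4:**
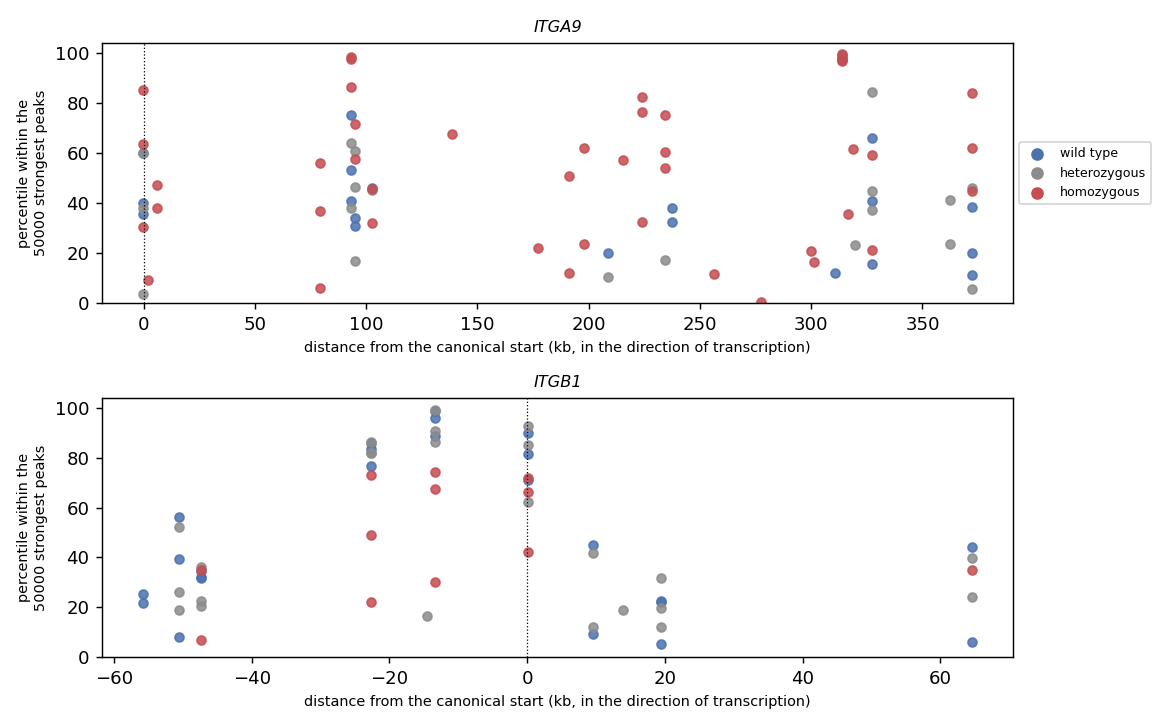
Percentile within the 50000 strongest peaks (y axis) of every region of ITGA9 (top) and ITGB1 (bottom) by distance from the canonical start (x axis, kb, in the direction of transcription). Each point is 1 library, coloured by genotype. ITGA9 holds red points along its introns where blue ones are absent, and the ITGB1 sites at 13.3 and 22.7 kb before the start hold red points below the blue ones.

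ITGB7, which pairs with alpha-4 on lymphocytes, had a site 9.6 kb upstream, inside RARG, at 57.8, 65.0 and 59.7 in wild type, 57.2, 69.8 and 52.4 in heterozygous and 96.9, 98.3 and 96.0 in homozygous libraries. ITGB2, the common beta-2 chain of leukocyte integrins, held 1 strong peak in each of the 6 wild type and heterozygous libraries and 2, 1 and 2 in homozygous ones. The ITGB8 start lay at 64.7 to 89.1 with overlapping genotypes.

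Among the proteins that activate integrins, kindlin-1 (FERMT1) fell against the heterozygous line. It had 1, 2 and 2 in wild type, 3, 3 and 1 in heterozygous and 0, 0 and 0 in homozygous libraries. The difference from heterozygous was −1.67 ± 0.30 (SE, limma, adjusted p = 0.0411), and from wild type −1.39 ± 0.30 (adjusted p = 0.0728). Without any 1 library other than heterozygous 3, the adjusted p against heterozygous was 0.0905 to 0.117. Its canonical start had no strong peak in any library. The wild type-only region chr20:6054569-6055322, just downstream of the gene, was at 53.8, 66.1 and 54.6 in wild type and 60.8, 10.8 and 57.0 in heterozygous libraries. Kindlin-3 (FERMT3), the blood cell form, held 3, 1 and 1 strong peaks in wild type and 3, 3 and 3 in homozygous libraries, and talin-1 (TLN1) 1, 1 and 1 and 2, 1 and 3. Neither passed the test.

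In the complex of ILK, PINCH and parvin, ILK held 5 or 6 strong peaks in every library. LIMS1 held 12, 12 and 15 in wild type, 14, 15 and 14 in heterozygous and 10, 11 and 10 in homozygous libraries, with homozygous values below all others (log2 difference from wild type −0.30 ± 0.09 SE, adjusted p = 0.152 by limma). Its wild type-only region, chr2:109212200-109212742, was at 20.8, 27.3 and 38.3. It was the only one of the 25 separated regions with no peak at all in the full lists of the group that lacked it. Gamma-parvin (PARVG), the parvin of blood cells, had a homozygous-only intronic region at chr22:44588113-44589159, at 53.0, 37.2 and 67.5.

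Among kinases and scaffolds, NEDD9 had separated regions in both directions within 1 gene. Its homozygous-only intronic region chr6:11224555-11225402 was at 71.8, 51.6 and 45.1. A second one, chr6:11241595-11242788, was at 12.9, 41.4 and 23.02 in homozygous and at 36.8, 39.9 and 55.5 in heterozygous libraries. It was the only region of the 249 seen in either genotype that separated heterozygous from wild type, against 0.393% of all regions, and 0 were wild type-only, against 0.504%. Without wild type 3, which shares intervals with heterozygous 1, 24 of 245 regions separated those 2 genotypes. Of these, 10 were heterozygous-only, against 3.45% of all regions, and 14 wild type-only, against 6.63%. The NEDD9 wild type-only region chr6:11309987-11310508 was at 67.5, 37.1 and 74.1. The number of strong peaks was 4, 4 and 4 in wild type, 6, 6 and 6 in heterozygous and 8, 8 and 5 in homozygous libraries, so both mutants were above wild type (homozygous minus wild type 0.65 ± 0.15 SE, adjusted p = 0.0873 by limma, 0.0384 in the added fit).

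BCAR1, the p130Cas scaffold, held the wild type-only region with the highest rank, chr16:75289989-75290499, at 80.9, 85.2 and 83.9 in wild type and 77.2, 86.2 and 47.4 in heterozygous libraries. This site is at the start of 1 of its shorter transcripts, 4.7 kb from the canonical start. Another BCAR1 site, 6.2 kb from the start, was homozygous-only at 26.6, 21.7 and 5.7. PTK2 held 4, 6 and 5 strong peaks in wild type, 4, 2 and 4 in heterozygous and 6, 8 and 7 in homozygous libraries. PTK2B held 10, 9 and 10, then 10, 9 and 9, then 6, 8 and 7, with homozygous values below all others. PTK2B was named after its values were seen.

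Of the tensins, which cap the adhesion on actin, TNS1 had 2 neighbouring homozygous-only regions at the start of a shorter transcript. The stronger, chr2:218767167-218768094, was at 46.9, 59.0 and 61.3, and the other at 2.0, 3.1 and 64.3. TNS3 had a wild type-only intronic region, chr7:47394439-47395370, at 51.0, 43.2 and 60.6, and a site 106.7 kb from its start that ranked at 94.8 to 96.5 in wild type and at 27.5, 90.4 and 76.9 in homozygous libraries. CAV2 had a homozygous-only intronic region at 73.6, 17.2 and 40.4, far from its canonical start. CAV1 held 1, 2 and 2 strong peaks in wild type, 2, 2 and 3 in heterozygous and 3, 5 and 5 in homozygous libraries (a log2 difference of 1 ± 0.24 SE, adjusted p = 0.0945 by limma). Its extra peaks, too, lay at sites that were not shared by all 3 homozygous libraries.

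Counted over genes, the number of strong peaks did not overlap between homozygous and wild type for 10 of the 43 genes. ITGA1, ITGA9, ITGAX, NEDD9 and CAV1 were higher, against 5.41% of all genes, and ITGA5, ITGB1, FERMT1, LIMS1 and PTK2B lower, against 6.22%. ITGAX, at 0 in every wild type library, met the filter of a mean of at least 1 only through the mutant libraries. ITGA5 and FERMT1, at 0 in every homozygous library, met it only through the others. The place of these genes in the count is thus partly set by the filter, which also applied to the shares over all genes. Of the 5 genes not tested, all had a mean below 1 strong peak. The median log2 difference was 0.19 over the 43 genes and 0 over all genes tested. Between heterozygous and wild type 0 of the 43 genes passed limma, where 0.111% of all genes did, and 2 had an unadjusted p below 0.05, against 6.39% of all genes. An exact permutation test over the 280 divisions of the 9 libraries called 0 genes after adjustment, and 9 of the 43 had an unadjusted p below 0.05, against 8.4% of all genes.

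Heterozygous libraries resembled wild type at most separated sites. Of the 10 wild type-only regions, all were in at least 2 of the 3 heterozygous libraries. Heterozygous 1 had all 10, but its list shares intervals with wild type 3, so its presence is not independent. Each of the 10 was also in heterozygous 2 or 3. Of the 15 homozygous-only regions, 7 were in 0 heterozygous libraries: 2 each of ITGA9 and ITGA2 and 1 each of NEDD9, CAV2 and TNS1. Against heterozygous, 10 of 314 regions were homozygous-only, 3.18% against 3.16% of all regions, and 9 were heterozygous-only, 2.87% against 3.41%. With wild type 1 and 2 counted as 1 source, and wild type 3 and heterozygous 1 as another, 13 of 334 regions separated homozygous from all other libraries. Of these, 7 were present in homozygous only, against 1.8% of all regions, and 6 were absent there only, against 1.56%.

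The full lists, which reach down to −log10 p of 2, gave a different set of genes. Numbers were scaled to 50000 peaks of a list, and 13 of 38 genes passed limma in homozygous minus wild type, 10 higher and 3 lower. Of all 9088 genes tested, 15.7% were higher and 6.59% lower, and the median of all genes was 0.14 on the log2 scale. ITGA11, an alpha chain of collagen receptors in mesenchyme, had 0, 4 and 3 peaks in wild type, 1, 1 and 2 in heterozygous and 14, 15 and 22 in homozygous lists. Its difference of 1.78 ± 0.18 (SE, adjusted p = 9.29e-07 by limma) was the widest of the 38. ITGA11 had almost no strong peaks, at most 2 in a library. It met the filter of a mean of at least 1 only through its homozygous libraries, with scaled numbers of at most 0.658 in the others. ITGB2, ITGB4 and ITGA3, named below, met it in the same way. These higher calls are therefore not independent of the filter, which also applied to the shares over all genes.

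Talin-2 (TLN2) had 4, 9 and 14 peaks in wild type, 10, 6 and 5 in heterozygous and 15, 23 and 65 in homozygous full lists (1.53 ± 0.23, adjusted p = 6.44e-05). ITGA11 and TLN2 both lie on chromosome 15, whose share of the full lists was 1.35 times as high in homozygous as in wild type libraries. ITGB2 on chromosome 21 (ratio 1.33) had 4, 4 and 3 against 6, 10 and 13, and rose by 0.86 ± 0.16 (adjusted p = 0.000625). PTK2, VCL, TNS1, PARVA, ITGA9, ITGB4 and ITGA3 also rose, by 0.48 to 0.81. Of these, ITGB4 and ITGA3 lie on chromosome 17, with a ratio of 1.64. The part of these chromosome shares in the rises was not tested.

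ITGB8, ITGAV and FERMT1 fell in the full lists. ITGB8 and ITGAV pair as a receptor that activates latent TGF-beta. ITGB8 had 21, 22 and 25 peaks in wild type, 21, 20 and 22 in heterozygous and 3, 6 and 17 in homozygous lists (−1.02 ± 0.20, adjusted p = 0.000702). ITGAV had 24, 25 and 20, then 26, 20 and 22, then 10, 12 and 15 (−0.51 ± 0.16, adjusted p = 0.027). Their starts stayed among the strongest in all 9 libraries. The strong distal peaks of ITGAV numbered 2, 4 and 2 in wild type, 1, 2 and 1 in heterozygous and 1, 1 and 1 in homozygous libraries, and those of ITGB8 0 or 1 in every library. FERMT1 had 8, 13 and 10, then 7, 6 and 4, then 3, 2 and 8 (−0.65 ± 0.17, adjusted p = 0.00774), and had no strong peak in homozygous libraries either.

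**Figure D5:**
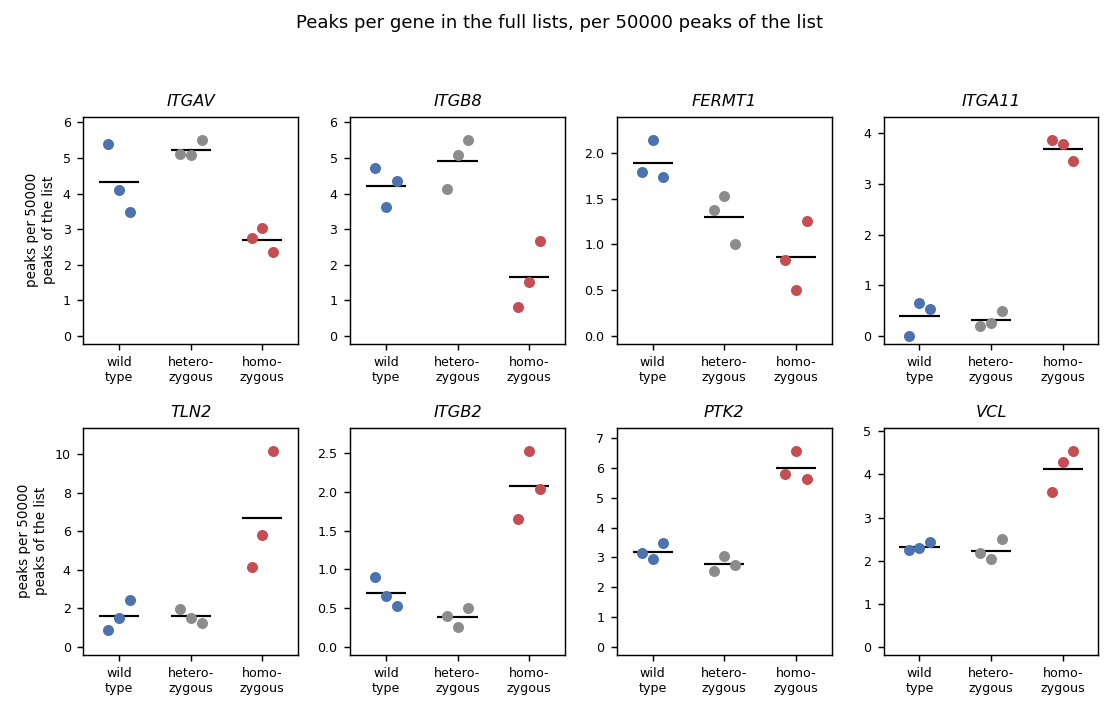
Peaks per gene in the full lists, scaled to 50000 peaks of each list (y axis), in the 3 libraries of each genotype (points) with their mean (line). ITGAV, ITGB8 and FERMT1 are lower and the other 5 genes higher in homozygous libraries, and ITGB8 and FERMT1 have 1 homozygous library near the others.

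Other genes of the adhesion pathway, from lists that do not overlap the 48, held a few called genes each, where 3.12% of all genes were called. Of 16 tested matrix ligand genes, 0 were higher and 1 lower in homozygous libraries: fibronectin (FN1), the ligand of the ITGA5 receptor, with 6, 5 and 4 peaks in wild type, 4, 4 and 4 in heterozygous and 3, 3 and 3 in homozygous libraries (−0.57 ± 0.11 SE, adjusted p = 0.0499 by limma). Of 17 signalling adaptors, PAK1, a kinase of the Rac pathway, was higher, with 3 in each of the 6 other libraries and 5, 4 and 4 in homozygous ones. ELMO1, a Rac exchange factor subunit, was lower, with 15, 16 and 19, then 18, 17 and 20, then 9, 10 and 8. Of 21 other actin linkers, LPP, a zyxin relative, was higher, with 2, 2 and 3, then 3, 5 and 4, then 5, 6 and 6. The medians of these 3 lists were 0.02, 0.19 and 0.11 against 0 over all genes. The platelet integrin genes ITGA2B and ITGB3 had no call in either direction. Among the marker lists, PTPRC, the leukocyte phosphatase CD45, was lower in homozygous than in wild type libraries, and no K562, fibroblast, epithelial or endothelial marker was called in that comparison.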

How the data were processed

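Peaks were taken from the 9 lists deposited by the authors, 1 per library. Per the submitters' processing notes, cutadapt, Bowtie2 2.2.9, Picard and MACS2 2.1.0 were used, with builds hg19 and GRCh37. Roles, settings and any Tn5 shift are not given in the sources used here. The deposited columns are a fold enrichment read as a ratio, and −log10 p and q values, used only to rank peaks within a list. The lists hold no read counts, so depth is unknown. The −log10 p at rank 50000 ranged from 4.95 (homozygous 2) to 6.73 (homozygous 3).

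Peaks on chromosomes 1 to 22 and X were ranked by −log10 p and merged at 1 bp overlap. A region was at a start when within 1 kb of a protein-coding start of its gene (GENCODE release 44 on GRCh37), otherwise distal. The shares over all distal regions in gene windows left out starts of every protein-coding gene. Peak numbers per gene were tested as log2(number + 1) with limma 3.58.1 in R 4.3.3, over all genes with a mean of at least 1, with Benjamini-Hochberg adjustment and a threshold of 0.05. Full lists were scaled to 50000 peaks. In simulated data, 200 genes with a mean of at least 4 peaks were changed 4-fold. The fit found 165 of them and also called 33 unchanged ones. That is more than its threshold allows, so its calls need care. Smaller changes, and changes in genes with fewer peaks such as ITGA5 and FERMT1, were not simulated. The added fit (mean of at least 3, trended and robust) was not run on simulated data. The spread in that simulation was changed from Poisson to the narrower one seen in the data, after the first setting found almost none of the changed genes.

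Genes with per-library values are those with a separated region, those called, and a list of 13 adhesion genes, and others are named as added. The details of 1 wild type-only site are not reported here. The members, lists and tests were chosen with earlier results of these data known. Alternatives tried were other list lengths, a q-value minimum, other windows, pseudocounts and filters, a replicate block, leaving out libraries, joining shared lists and an exact permutation test.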

Additional observations from a re-analysis of the deposited data

How the results depend on the processing

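The counts below show only how the results move with the setting, since for most settings the share over all regions is not given. Separated regions of homozygous and wild type libraries numbered 25. They numbered 8 among the 20000 strongest peaks, 39 among the 100000 strongest, 56 in the full lists, 45 with a 50 kb flank, 13 with shared lists as 1 source, and 1 when absence from the full lists was required. Leaving out 1 library gave 27 to 38. For heterozygous and wild type the number was 1, against 3 among the 20000 strongest, 7 in the full lists, 5 with −log10 q of at least 2, 3 with a 50 kb flank, 0 by absence from the full lists, and 1 to 24 on leaving out 1 library. For homozygous and heterozygous it was 19, against 10, 35 and 56 among the 20000 and 100000 strongest and the full lists, 30 with the q minimum, 41 with a 50 kb flank, 1 by absence from the full lists, and 24 to 32 on leaving out 1 library.

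Genes called by peak number in homozygous minus wild type numbered 2, against 5 among the 100000 strongest, 13 in the full lists, 7 with the q minimum, 5 with a 50 kb flank, 4 in the added fit and 0 by the exact permutation test. Leaving out 1 library gave 0 to 6, with 0 without wild type 2. In heterozygous minus wild type the number was 0, against 1 with the q minimum and 0 to 1 on leaving out 1 library. In homozygous minus heterozygous it was 4, against 2 among the 20000 strongest, 14 in the full lists, 1 with the gene body only, 0 by the exact test and 0 to 5 on leaving out 1 library. The exact test could not pass the adjustment at this size. These counts rise and fall with the share called over all genes. In homozygous minus wild type that share was 15.7% higher and 6.59% lower in the full lists, and 9.71% in the added fit. For the other alternatives it is not given, so their counts are not results about these genes.

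Fitting the replicate number as a block left 1 call in homozygous minus wild type, 0 in heterozygous minus wild type and 0 in homozygous minus heterozygous. The numbers do not pair the samples: correlations of same-numbered libraries ran from −0.245 to 0.117.

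Direction changed as follows, in homozygous minus wild type: ITGA1 −0.14, NEDD9 −0.25 and PTK2 −0.14 among the 20000 strongest peaks, and ITGA5 0.21, LIMS1 0.22 and PTK2B 0.19 in the full lists. In homozygous minus heterozygous, ITGA1 was −0.25 among the 20000 strongest, and NEDD9 −0.28, ITGA5 0.013 and PTK2B 0.25 in the full lists. The cause was not tested. The calls for ITGA1 and ITGA5 thus hold for the 50000 strongest peaks and not for each list length.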
